A study of Mus musculus with 4 samples.

Results

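The RNA of Wnt ligands, their Frizzled receptors and secreted Wnt inhibitors was examined in mouse ear skin. The genes were all those with a single symbol in the platform annotation that began with Wnt, Fzd, Sfrp or Dkk followed by a digit, which gave 38 of 19938 genes. They comprise 19 Wnt ligands, 11 genes under Fzd symbols, 4 Sfrp genes and 4 Dkk genes. One of the Fzd symbols, Fzd10os, is a transcript of the strand opposite Fzd10 and encodes no receptor. Frzb, Dkkl1 and Wif1 lie outside the naming rule and are described with the rest of the pathway.

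Wnt proteins are secreted lipid-modified ligands that bind Frizzled receptors and the co-receptors LRP5 and LRP6, and in the canonical branch this stabilises beta-catenin, which acts with TCF and LEF factors in the nucleus. Secreted frizzled-related proteins (Sfrp) bind Wnt ligands outside the cell, and most Dickkopf proteins (Dkk) block the co-receptors. In skin the pathway is known for hair follicle formation and cycling and for the upkeep of stem cells in follicle and epidermis.

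Whole ears of 8-week-old female mice were read on 4 Affymetrix Mouse Gene 1.0 ST arrays. The mice carried floxed Traf6 alleles with Traf6 intact (Traf6f/f, here f/f) or were epithelial Traf6 knockouts (Traf6EKO, here EKO, meaning the arrays so labelled), which the series title calls keratinocyte-specific. TRAF6 is an adaptor of Toll-like, IL-1 and IL-17 receptor signalling, and the sources used here do not name the Cre driver behind the knockout. Ears were untreated or had received cream with imiquimod (IMQ, a TLR7 agonist that provokes psoriasis-like inflammation) at 10 mg per day for 2 days. Each combination of genotype and treatment is 1 array, so there is no replicate error, and differences between arrays are given without a p-value. An n of 2 stands in the series text, but the sources used here do not say whether mice were pooled for an array.

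On the log2 scale Traf6 RNA stood at 9.51 on the untreated and 9.30 on the IMQ array of f/f, and 9.65 and 9.35 on those of EKO. It was thus not lower on the arrays labelled EKO, and this does not check the labels, because whole ears include non-epithelial cells and the probe positions were not compared with the deleted exons. The keratinocyte markers fixed for this work were all 7 basal ones and the 4 of 6 suprabasal ones that were measured. All of them reached the floor on at least 1 array, as did all 7 measured fibroblast markers. This floor, defined below, is the median of all genes on an array and not a detection limit.

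Levels are RMA values on the log2 scale, and a difference of 1 is 2-fold. A level was taken as clear of the low range where it reached the median of all 19938 genes on its array, a floor of 6.98 and 6.93 for f/f (untreated, then IMQ) and of 6.96 and 6.94 for EKO. A gene counted in a comparison if it reached the floor on at least 1 of its arrays. Of the 38 members, 15 reached the floor on all 4 arrays, 4 on some of them and 19 on none. Those 4 were Wnt3a, Wnt5a, Wnt5b and Fzd5, which lay so close to the floor that they crossed it by small amounts. Frizzled genes were mostly above it (8 of 11 on all arrays) and Wnt ligands mostly below it (12 of 19 on none). Levels of different genes rest on different probes. Apart from the use of this floor and of summed marker levels, they were not set against each other.

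**Figure D1:**
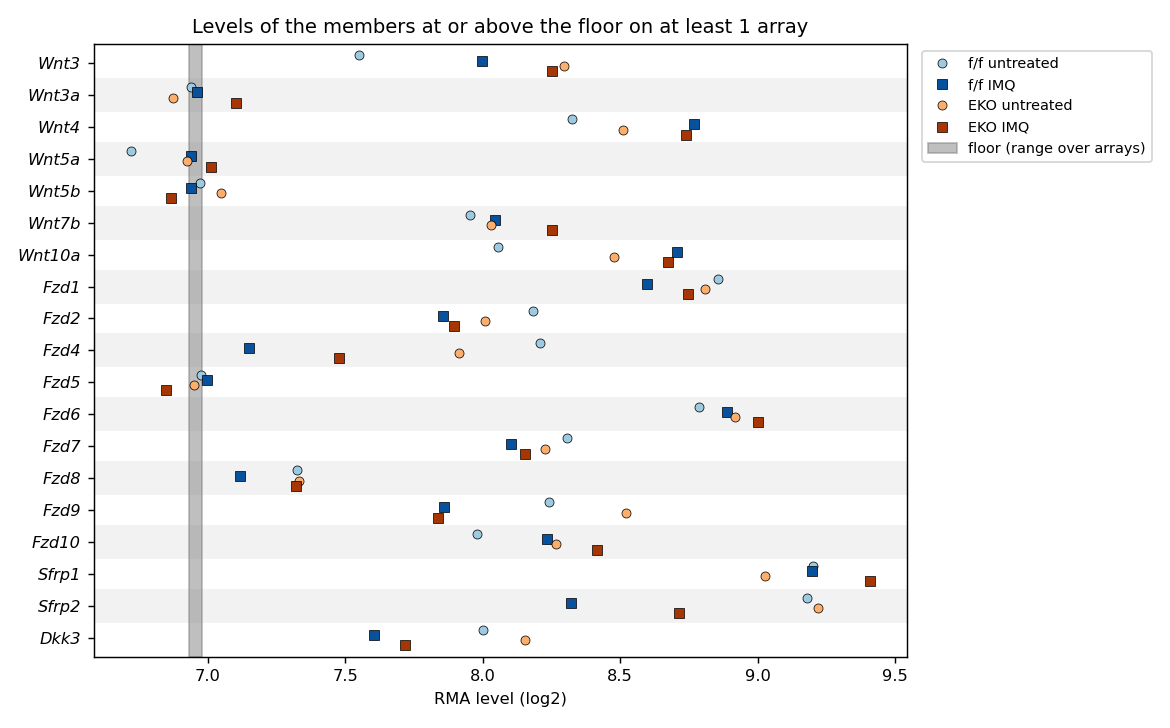
RMA level (log2, horizontal axis) of the 19 members that reached the floor on at least 1 array, with 1 point per array and the grey band giving the range of the floors. Circles are untreated and squares IMQ-treated ears, blue f/f and orange-brown EKO. The Fzd4 squares (7.15 and 7.48) lie left of its circles (8.21 and 7.91), and the f/f untreated circle of Wnt3 (7.55) lies left of its other points.

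The members above the floor that were at least 1.5-fold apart (0.585 on the log2 scale) in any comparison were Wnt3, Wnt10a, Fzd4, Fzd9 and Sfrp2. RefSeq promoter windows (GRCm38.p6) were listed for 25 of the 38 genes, in 28 windows, among them the following 4 of these members. The 250 bases before each transcription start are shown because they are the start regions of the genes on which the results turn. Capitals mark CG dinucleotides, in which these windows are rich.

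Fzd4, chr7:89404116-89404365, plus strand: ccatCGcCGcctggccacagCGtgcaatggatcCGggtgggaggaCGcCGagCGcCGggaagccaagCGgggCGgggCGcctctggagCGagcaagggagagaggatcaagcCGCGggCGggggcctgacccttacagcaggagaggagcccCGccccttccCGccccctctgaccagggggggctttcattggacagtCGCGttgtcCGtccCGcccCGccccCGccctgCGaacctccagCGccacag

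Sfrp2, chr3:83766071-83766320, plus strand: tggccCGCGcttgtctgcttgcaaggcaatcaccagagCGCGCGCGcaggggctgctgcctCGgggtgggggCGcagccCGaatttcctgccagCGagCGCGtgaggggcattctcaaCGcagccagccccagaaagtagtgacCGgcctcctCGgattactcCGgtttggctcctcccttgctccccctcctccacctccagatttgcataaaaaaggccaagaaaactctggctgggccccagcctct

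Wnt3, chr11:103773925-103774174, plus strand: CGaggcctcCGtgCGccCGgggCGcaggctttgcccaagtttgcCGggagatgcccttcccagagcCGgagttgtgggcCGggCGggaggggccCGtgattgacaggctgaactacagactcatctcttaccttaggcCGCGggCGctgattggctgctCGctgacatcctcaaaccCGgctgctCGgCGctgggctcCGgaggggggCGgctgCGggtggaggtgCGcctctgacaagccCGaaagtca

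Fzd9, chr5:135251048-135251297, minus strand: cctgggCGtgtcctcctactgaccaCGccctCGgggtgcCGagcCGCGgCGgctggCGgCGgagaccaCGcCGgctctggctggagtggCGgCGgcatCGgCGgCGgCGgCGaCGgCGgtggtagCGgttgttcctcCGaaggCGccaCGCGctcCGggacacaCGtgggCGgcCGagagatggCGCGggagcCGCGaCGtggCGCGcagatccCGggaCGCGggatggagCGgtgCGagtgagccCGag

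GC content was 72.8% for Fzd4, 63.6% for Sfrp2, 68% for Wnt3 and 76.4% for Fzd9, with 25, 16, 22 and 42 CG dinucleotides. Over the 28 member windows the median was 69.4% GC and 22 CG dinucleotides, against 52.4% and 6 over all 32851 windows. Both strands were searched for a TCF/LEF core (CTTTGAT), an AP-1 motif (TGANTCA) and a kappaB motif (GGGNNTTN followed by CC). None of the 3 motifs lay in the 4 windows shown. The TCF/LEF core was found in 2 of the 28 member windows, of Wnt5b and Wnt11, against 3.21% of all windows. The AP-1 motif was found in 1, of Wnt5b, against 6.75%, and the kappaB motif in 0, against 4.11%. A match is a description of these letters and not a binding site.

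The first comparison asks how f/f skin differed after 2 days of IMQ. Among ligands Wnt10a was 1.57-fold higher with IMQ, the receptor gene Fzd4 was 2.08-fold lower and the inhibitor gene Sfrp2 was 1.81-fold lower. Among 19 members that passed the floor, 1 was higher and 2 were lower by 1.5-fold or more, where 10.2% and 9.53% of all 10548 genes tested were. At 2-fold the count was 1 member, Fzd4, against 6.45% of all genes in either direction. At either fold the members' shares were at or below the background or close to it, which is no result about the families as a whole. The members' median difference was -0.00, and that of all genes was 0.01, but with a floor at the 40th percentile or on every array the members' median was -0.19 or -0.20. In whole ear RNA, fewer cells of a type and less RNA per cell cannot be told apart.

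Among the ligands, Wnt10a, a Wnt of epidermis and its appendages whose human counterpart is mutated in ectodermal dysplasias, was lowest in f/f untreated skin. Its level was 8.06 untreated and 8.71 with IMQ in f/f, and 8.48 untreated and 8.67 with IMQ in EKO. The other 3 arrays lay within a narrow range above the f/f untreated array. The IMQ difference was 0.65 in f/f and 0.20 in EKO.

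Wnt3, a canonical ligand, showed the largest genotype difference of all members above the floor. Its level was 7.55 on the untreated and 8.00 on the IMQ array of f/f, and 8.29 and 8.25 on those of EKO. Both EKO arrays lay above both f/f arrays. Without IMQ, EKO was 1.67-fold higher (0.74), and only 31 of 10200 genes had a difference at least as high, Wnt3 included. With IMQ the difference was 0.25. The IMQ difference was 0.45 in f/f and -0.04 in EKO.

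Wnt4, a ligand made by epidermal keratinocytes, was read by 2 probe sets that differed in size but not in direction. The brighter one, which stands for the gene here, gave 8.32 untreated and 8.77 with IMQ in f/f, and 8.51 untreated and 8.74 with IMQ in EKO. Its IMQ differences were 0.44 in f/f and 0.23 in EKO. The dimmer one gave 7.93, 8.91, 8.38 and 8.84 in the same order, with IMQ differences of 0.98 and 0.46. On the dimmer probe set, and on the mean of both, Wnt4 would pass 1.5-fold in f/f, which makes 2 ligands higher there instead of 1. On both probe sets f/f untreated skin was the lowest array.

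Wnt7b, a ligand of epidermis and hair follicle, differed less and was highest in EKO IMQ skin. Its level was 7.95 on the untreated and 8.05 on the IMQ array of f/f, and 8.03 and 8.25 on those of EKO. The other ligands that reached the floor lay at its edge. Wnt3a was at 6.94 untreated and 6.96 with IMQ in f/f, and at 6.88 and 7.10 in EKO. Wnt5b was at 6.97 and 6.94 in f/f and at 7.05 and 6.87 in EKO. Wnt5a, the main non-canonical ligand, ranged from 6.72 to 7.01. With IMQ in f/f, 6 of the 7 ligands above the floor were higher (median 0.22), and the exception, Wnt5b at -0.03, reached 0.02 under another scaling. Of all 10548 genes 5341 were higher. In EKO 5 of 7 were higher (median 0.20), as were 4840 of all 10285 genes. Without IMQ all 5 ligands above the floor were higher in EKO than in f/f, with a median of 0.19, where that of all genes was 0.02. The floor entered these counts. Wnt3a and Wnt5a reached it only on the IMQ array of each genotype, and Wnt5b reached it untreated only in EKO. Over all 19 ligands, 11 were higher with IMQ in f/f (median 0.02) and 14 in EKO (0.05). Without IMQ 12 of 19 were higher in EKO (0.08). Over all 19938 genes these medians were -0.01, -0.01 and -0.00.

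Keratinocyte markers moved with these ligands in some comparisons and not in others. The summed linear level of the 7 basal keratinocyte markers was 17636 untreated and 21842 with IMQ in f/f, and 20402 untreated and 21423 with IMQ in EKO. That of the 4 suprabasal markers was 18168, 22296, 22222 and 25204 in the same order. Like Wnt10a and Wnt4, both sums were lowest on the f/f untreated array. In f/f with IMQ 4 of 7 basal and 3 of 4 suprabasal markers were higher, and without IMQ 6 of 7 and 4 of 4 were higher in EKO. The basal marker with the largest IMQ difference in each genotype, Krt15, went against the sum, at -1.94 in f/f and -0.63 in EKO. With IMQ in EKO all 4 suprabasal markers were higher, but only 2 of 7 basal markers were and 5 were lower (median -0.03), although the basal sum was higher. The part of keratinocyte content in the ligand values was not tested.

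The remaining 12 ligands were below the floor on all 4 arrays, at levels between 4.90 and 6.92. They were Wnt1, Wnt2, Wnt2b, Wnt6, Wnt7a, Wnt8a, Wnt8b, Wnt9a, Wnt9b, Wnt10b, Wnt11 and Wnt16. Their differences over the 5 comparisons lay between -0.36 and 0.43, and both extremes belonged to Wnt2. Wnt10b, a ligand of the growing hair follicle, was at 6.84 on the untreated and 6.58 on the IMQ array of f/f, and 6.70 and 6.56 on those of EKO. Wnt6, known from epithelia, stayed between 6.12 and 6.29. Signal in this range approaches background and its differences are compressed.

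**Figure D2:**
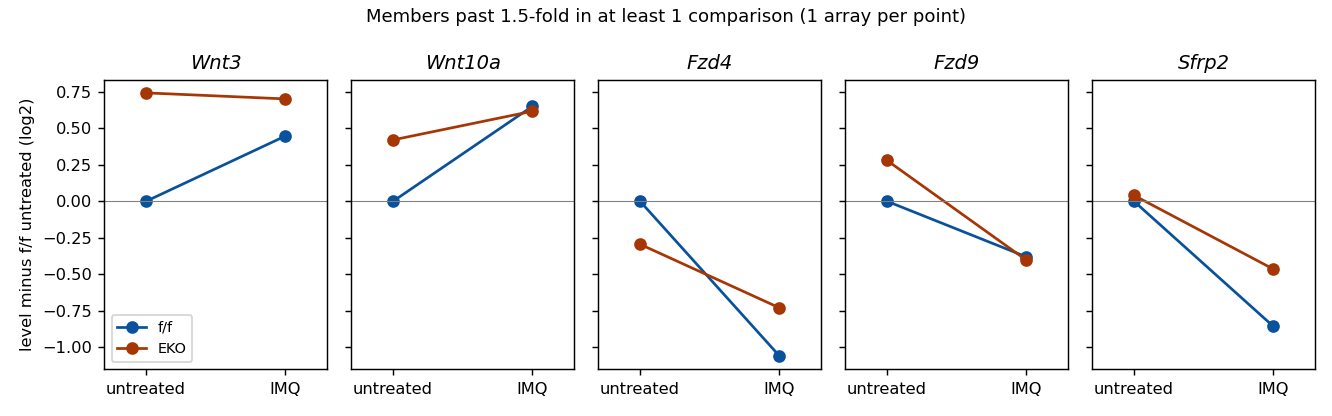
Level of each member past 1.5-fold in at least 1 comparison, as the difference from the f/f untreated array (log2, vertical axis), in untreated and IMQ-treated skin of f/f (blue) and EKO (brown), with 1 array per point and lines joining arrays of one genotype. Wnt3 and Wnt10a lie above 0 on every array but the reference, Fzd4 lies below it, and the Fzd4 lines cross.

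Among Frizzled genes with IMQ in f/f, 6 of 9 above the floor were lower, with a median of -0.21, and in EKO 6 of 8, with a median of -0.07, though Fzd8 at -0.01 turned to 0.02 under another scaling. Over all genes 5204 of 10548 were lower in f/f (median 0.01) and 5442 of 10285 in EKO (median -0.01), and with so few receptors these counts do not set the family apart. Fzd4, the receptor for Norrin and for Wnts in blood vessel growth, was at 8.21 untreated and 7.15 with IMQ in f/f, and 7.91 untreated and 7.48 with IMQ in EKO. Both IMQ arrays lay below both untreated arrays. The IMQ difference was -1.06 in f/f, where 226 of 10548 genes were at least as low, and -0.44 in EKO, where 336 of 10285 were.

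Fzd9 was the only member at least 1.5-fold apart with IMQ in EKO. Its level was 8.24 on the untreated and 7.86 on the IMQ array of f/f, and 8.52 and 7.84 on those of EKO. Both IMQ arrays lay below both untreated arrays and were nearly equal. The IMQ difference was -0.68 in EKO (1.61-fold lower), where 37 of 10285 genes were at least as low, and -0.38 in f/f. The larger IMQ difference of Fzd9 was thus in EKO, whose untreated array was also the highest.

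The other Frizzled genes above the floor differed less. Fzd2, close in sequence to Fzd1 and Fzd7, was at 8.18 untreated and 7.86 with IMQ in f/f, and 8.01 untreated and 7.89 with IMQ in EKO. Fzd1 differed with IMQ by -0.26 in f/f and -0.06 in EKO, Fzd7 by -0.20 and -0.07, and Fzd8 by -0.21 and -0.01. In each of these 4 genes f/f IMQ skin was the lowest array. Fzd6, which orients hairs through planar cell polarity, went the other way by 0.10 and 0.08. Fzd10 did so by 0.25 and 0.15, from 7.98 in f/f untreated to 8.23 in f/f IMQ and from 8.27 in EKO untreated to 8.42 in EKO IMQ skin. Fzd5 lay at the floor, at 6.97 untreated in f/f with an IMQ difference of 0.02, and at 6.95 untreated and 6.85 with IMQ in EKO. Fzd3, which shares the polarity role of Fzd6, was below the floor throughout, at 6.44 on the untreated and 6.17 on the IMQ array of f/f, and 5.98 and 5.84 on those of EKO. Fzd10os stayed between 6.57 and 6.81.

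Among the Sfrp genes, Sfrp2, a secreted Wnt-binding protein made by dermal fibroblasts, was lower with IMQ in both genotypes. Its level was 9.18 untreated and 8.32 with IMQ in f/f, and 9.22 untreated and 8.71 with IMQ in EKO. The untreated arrays were nearly equal and both IMQ arrays lay below them. The difference was -0.86 in f/f, where 418 of 10548 genes were at least as low, and -0.51 in EKO, where 189 of 10285 were.

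Sfrp1, a close relative, did not follow Sfrp2. It was at 9.20 on the untreated and 9.20 on the IMQ array of f/f, and 9.02 and 9.41 on those of EKO. EKO IMQ skin was the highest array and EKO untreated the lowest, a difference of 0.38. Sfrp4 and Sfrp5 were below the floor on all arrays, Sfrp5 narrowly in f/f untreated skin (6.98). Sfrp5 differed with IMQ by -0.41 in f/f and -0.08 in EKO. Sfrp4 was at 6.81 untreated and 6.37 with IMQ in f/f, and 6.44 untreated and 6.72 with IMQ in EKO.

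Among the Dkk genes only Dkk3, a divergent family member that is not a typical co-receptor blocker, was above the floor. Its level was 8.00 on the untreated and 7.60 on the IMQ array of f/f, and 8.15 and 7.72 on those of EKO. The IMQ differences of -0.40 and -0.44 were alike in size, so that its difference of IMQ differences was -0.04. Dkk1, Dkk2 and Dkk4, the co-receptor antagonists, were below the floor on all arrays. Dkk1 ranged from 5.85 to 6.01 and Dkk2 from 6.56 to 6.87. Dkk4, a target of the pathway in hair placodes, was at 5.44 untreated and 5.78 with IMQ in f/f, and 5.57 untreated and 5.32 with IMQ in EKO.

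Fibroblast, endothelial, adipocyte and skeletal muscle marker lists were lower with IMQ beside Fzd4, Fzd9, Sfrp2 and Dkk3. They were not alone, because the sums of the cartilage, Schwann cell and macrophage lists, given in the closing section, were lower in both genotypes too. Of 8 cartilage markers 8 were lower with IMQ in f/f and 7 in EKO. The summed linear level of the 7 measured of 8 fibroblast markers was 14141 on the untreated and 10570 on the IMQ array of f/f, and 12841 and 10720 on those of EKO, with 6 of 7 lower in each genotype. For 7 endothelial markers, of which Kdr was below the floor on all arrays, it was 2570, 1884, 2110 and 1912 in the same order. For 8 adipocyte markers it was 13305, 4999, 9153 and 6777, and for 8 skeletal muscle markers 19302, 10348, 17225 and 14093, with all 8 of each list lower with IMQ in both genotypes. Each list was lower on both IMQ arrays than on the untreated array of the same genotype, as Fzd4 and Sfrp2 were, and its part in their values was not tested. For the 5 measured dermal papilla markers the sum was higher with IMQ in f/f (1473 untreated, 1751 with IMQ). In EKO it was lower (1469 and 1411). In each genotype 3 of these 5 markers were higher and 2 lower, among the latter Corin, at -0.70 in f/f and -0.67 in EKO. The sum of 6 neutrophil markers was 349 untreated and 6097 with IMQ in f/f, and 418 and 869 in EKO.

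**Figure D3:**
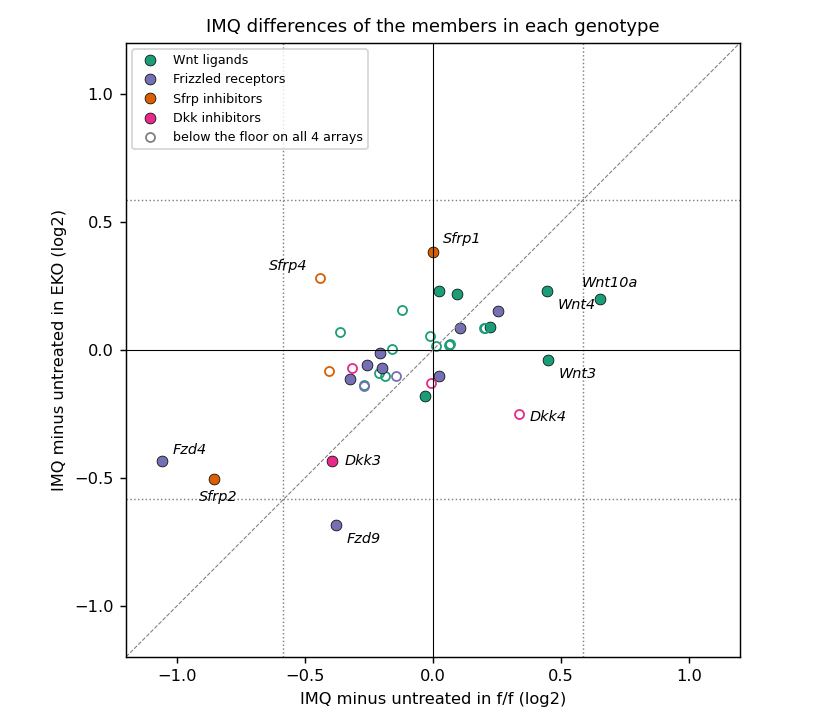
IMQ minus untreated difference (log2) of all 38 members in f/f (horizontal axis) and EKO (vertical axis), coloured by family, with open circles for members below the floor on all 4 arrays, dotted lines at 1.5-fold and a dashed line of equality. Fzd4 (-1.06 and -0.44) and Sfrp2 (-0.86 and -0.51) lie at the lower left, Wnt10a (0.65 and 0.20) at the right, and Fzd9 (-0.38 and -0.68) below the line of equality.

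The second comparison asks how EKO skin differed with IMQ. Fzd9 was 1.61-fold lower, followed by Sfrp2 (1.42-fold), Fzd4 and Dkk3 (both 1.35-fold), and the largest difference upward was that of Sfrp1 (0.38 on the log2 scale). Among 18 members that passed the floor, 0 were higher and 1 was lower by 1.5-fold or more, where 2.66% and 0.807% of all 10285 genes were. None reached 2-fold, against 0.768% of all genes. The median was -0.03, and that of all genes -0.01.

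The IMQ differences of the genotypes share no array. Among the 19 members above the floor on any array 16 had the same direction in both, which is 84.2%, against 80.7% of 10646 genes. The difference was larger in size in f/f for 12 of the 19, which is 63.2%, against 80.5% of all genes. Fzd4, Sfrp2, Wnt10a, Wnt3 and Wnt4 were among the 12, while Fzd9, Sfrp1 and Dkk3 had the larger difference in EKO.

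The third comparison asks how the genotypes differed without IMQ. Wnt3 (1.67-fold) and Wnt10a (1.34-fold) were higher in EKO, and Fzd10 (0.29) and Fzd9 (0.28) showed smaller differences in that direction. The largest difference downward was that of Fzd4, at -0.30. Among 16 members that passed the floor, 1 was higher and 0 were lower by 1.5-fold or more, where 0.647% and 1.06% of all 10200 genes were. None reached 2-fold, against 0.392% of all genes. The median was 0.08 (-0.04 with a floor at the 40th percentile), and that of all genes 0.02.

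The fourth comparison asks how they differed with IMQ. No member reached 1.5-fold in either direction among 19 above the floor, where 2.03% of all 10282 genes were higher and 2.61% lower, and 1.29% passed 2-fold. The largest differences were those of Sfrp2 (0.39) and Fzd4 (0.33), both higher in EKO, and the lowest was that of Fzd5 (-0.15). The median was 0.12, with 14 of 19 above 0, and that of all genes -0.01, with 5046 of 10282 above 0.

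**Figure D4:**
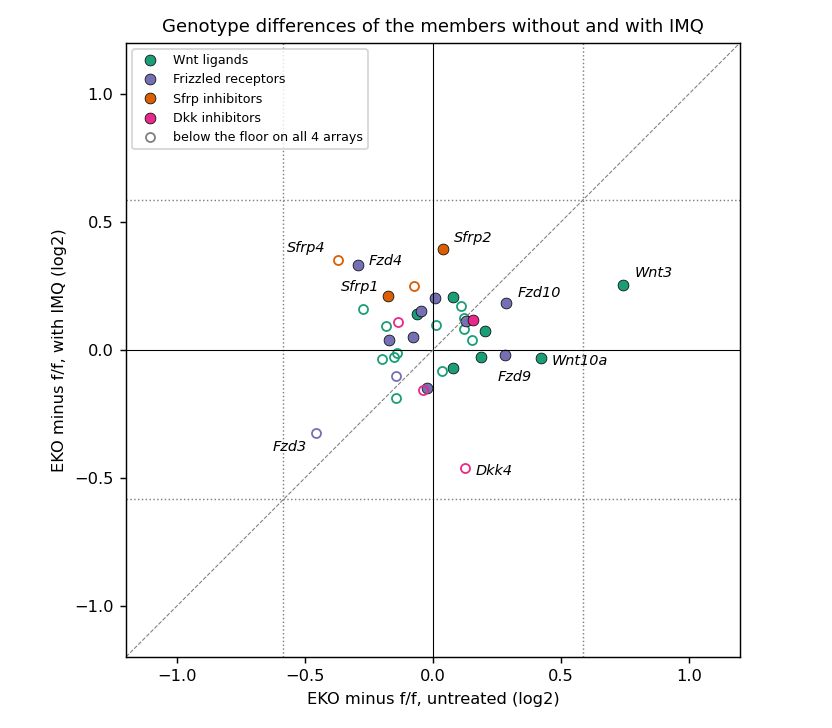
EKO minus f/f difference (log2) of all 38 members without IMQ (horizontal axis) and with IMQ (vertical axis), drawn as in the plot of IMQ differences. Wnt3 lies at the far right (0.74 and 0.25), Wnt10a lies at 0.42 without IMQ and -0.03 with it, and Fzd4 lies at upper left (-0.30 and 0.33).

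The last comparison takes the IMQ difference in EKO minus that in f/f. Only Fzd4 passed 1.5-fold, at 0.62 (1.54-fold), which became 0.58 and fell just short after median centring of the arrays. The largest differences in the other direction were those of Wnt3 (-0.49) and Wnt10a (-0.45). Here 1 of 19 members was higher and 0 were lower by 1.5-fold or more, where 3.65% and 4.63% of 10646 genes were, and 2.24% of all genes but no member passed 2-fold. Untreated levels enter these values: without IMQ, EKO skin had less Fzd4 and more Wnt3 and Wnt10a RNA than f/f skin. Several marker lists lay wholly on the side of Fzd4 in this comparison. Among these lists the largest difference was that of the hair matrix and shaft list, with 14 of 14 measured markers higher and a median of 1.85. All 8 adipocyte (median 1.00), all 8 muscle (0.62), all 6 melanocyte (0.31) and all 7 endothelial markers (0.26) were higher too. Of the melanocyte markers only Mitf reached the floor on an f/f array. On the other side all 6 neutrophil markers were lower, with a median of -2.31. The adipocyte and muscle lists also lay with Fzd4 between genotypes, with 8 of 8 of each lower in EKO without IMQ and 8 of 8 higher with it. In the hair list 13 of 14 were lower and 14 of 14 higher. With IMQ in EKO, however, 14 of 14 hair markers were higher (median 0.64), where Fzd4 was lower (-0.44). The part of these lists in the Fzd4 value was not tested. No test of these values is possible with single arrays.

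Beyond the 4 families, 60 of 61 listed Wnt pathway genes were measured, in 6 lists fixed by function, where the feedback and target list shares genes with the others. With IMQ in f/f, 34 of the 48 above the floor were lower and 14 higher (median -0.11, against 0.01 for all genes, of which 5204 of 10548 were lower). At 1.5-fold 7 were lower and 0 higher, where 9.53% and 10.2% of all genes were. The 7 were Nkd2, Apcdd1, Wif1, Frzb, Lgr4, Lgr6 and Btrc, and the first 3 also passed 2-fold, though after median centring only Nkd2 among them did.

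Inhibitors acting outside the cell or at its membrane made up 3 of the 7. Wif1, which binds Wnt ligands, was at 10.19 untreated and 9.17 with IMQ in f/f, and 10.16 untreated and 9.49 with IMQ in EKO. Frzb, a secreted relative of the Sfrp genes, was at 9.30, 8.38, 9.14 and 8.41 in the same order. In both, as in Sfrp2, the untreated arrays were close and both IMQ arrays lower, and these were the only pathway genes above the floor at least 1.5-fold lower with IMQ in EKO (Wif1 by 1.59-fold, Frzb by 1.66-fold). Apcdd1, a membrane inhibitor expressed in the hair follicle, was at 9.68, 8.63, 9.63 and 9.29, and f/f IMQ skin stood lowest. Sostdc1, a secreted antagonist, went the other way with IMQ, from 8.30 to 8.48 in f/f and from 8.75 to 9.17 in EKO. These differences of 0.18 and 0.42 did not reach 1.5-fold.

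Nkd2, a feedback inhibitor that binds Dishevelled, was at 8.02 on the untreated and 6.86 on the IMQ array of f/f, and 7.86 and 7.38 on those of EKO, of which the second value is below the floor. Axin2, the usual reporter of canonical signalling, differed with IMQ by -0.36 in f/f and -0.18 in EKO. The R-spondin receptor genes Lgr4 (-0.83 in f/f, -0.32 in EKO) and Lgr6 (-0.73 and -0.34) and the ubiquitin ligase gene Btrc (-0.68 and -0.32), whose product marks beta-catenin for decay, were lower by smaller amounts in EKO. Lgr5, a follicle stem cell receptor gene, was below the floor at 6.79 untreated and 6.17 with IMQ in f/f, and 6.06 untreated and 6.29 with IMQ in EKO, and Lef1 stayed between 6.10 and 6.19. Beside Lgr5, the summed linear level of 14 measured hair matrix and shaft markers, of which Krt28, Krt35 and Hoxc13 were below the floor on all arrays, was 4722, 2288, 2892 and 4618. Its part in the Lgr5 values was not tested.

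Genes of the cytoplasmic relay went both ways with IMQ. In f/f 7 of the 15 above the floor were higher and 8 lower, with a median of -0.03, from Btrc (-0.68) and Axin2 (-0.36) to Gsk3a (0.42) and Csnk1a1 (0.46). In EKO 6 were higher and 9 lower, with a median of -0.02. Ctnnb1, which encodes beta-catenin, differed by -0.05 in f/f and -0.07 in EKO. Without IMQ no pathway gene above the floor reached 1.5-fold between genotypes. With IMQ, Lgr6 (0.83), Sostdc1 (0.69) and Apcdd1 (0.66) were at least 1.5-fold higher in EKO, 3 of 47, against 2.03% of all genes. In the same comparison 14 of 14 hair matrix and shaft (median 1.13), 8 of 8 adipocyte, 8 of 8 muscle and 6 of 6 melanocyte markers were higher in EKO, and 6 of 6 neutrophil markers lower. Without IMQ Lgr6 (0.43) and Sostdc1 (0.44) were also higher in EKO, and Apcdd1 was not (-0.04). There 13 of 14 hair, 8 of 8 adipocyte and 8 of 8 muscle markers were lower, and 5 of 6 melanocyte markers higher. The part of these lists in the values of the 3 genes was not tested. In the difference of the IMQ differences Apcdd1 (0.71) and Nkd2 (0.68) were at least 1.5-fold higher, 2 of 48, which is near the 3.65% of all genes.

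**Figure D5:**
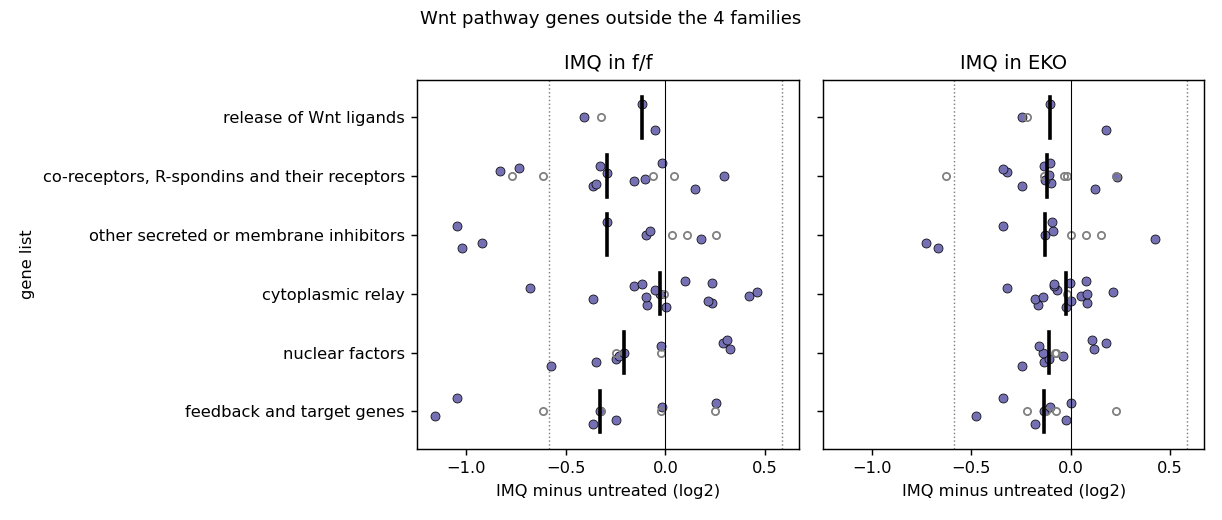
IMQ minus untreated difference (log2, horizontal axis) of Wnt pathway genes outside the 4 families, by list, in f/f (left) and EKO (right). Filled points are genes above the floor in that comparison, open points genes below it, black bars the median of the filled points and dotted lines 1.5-fold. In f/f the inhibitor list reaches -1.05 and the feedback list -1.16, while all cytoplasmic relay genes but Btrc (-0.68) lie within 1.5-fold.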

How the data were processed

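Whole-ear RNA was read on Mouse Gene 1.0 ST arrays (Affymetrix), per the labels' protocols. The authors deposited log2 levels per probe set, made with RMA, per the submitters' processing notes, and its version was not given in the sources used here. RMA as commonly run corrects background, quantile-normalizes and summarises probes. It equalises arrays, which hides a shift common to most genes, and compresses low signals.

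Of 35556 probe sets, 21789 have 1 gene symbol, 1621 several and 12146 are not listed. Only the first kind was named. The probe set with the highest mean stood for each gene. All 38 members matched RefSeq (GRCm38.p6) by Entrez identifier and symbol. Members and lists were chosen with earlier results of these data known. Named members are those past 1.5-fold or 2-fold and the extremes of each family and comparison, with the rest by range. Values of Rspo3, Dkkl1, Ctnnb1, Gsk3a, Csnk1a1 and of members below the floor were singled out after they were seen. Each of 4 groups is 1 array, so no test was made. Of the 13 marker lists those whose sums are not given in the results stand in the closing section. Differences were computed in Python 3.11.15 (pandas 2.3.3, numpy 2.4.6, matplotlib 3.10.9) and tested on simulated data, and other scalings in R 4.3.3 (limma 3.58.1). Alternatives were 3 other scalings, 3 other floors and averaging each gene's probe sets.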

Additional observations from a re-analysis of the deposited data

Results flagged for a closer look

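Several members went in opposite directions in the pair of genotypes or treatments, by at least 0.1 (log2) each way, and with 1 array per group none of these differences was tested. Above the floor, Fzd4 was lower in EKO than in f/f without IMQ (-0.30) and higher with it (0.33), a difference of 0.62. Sfrp1 did the same at -0.18 and 0.21, a difference of 0.38. Below the floor on all 4 arrays, Sfrp4 was lower with IMQ in f/f (-0.44) and higher in EKO (0.28), and its EKO minus f/f values were -0.37 untreated and 0.35 with IMQ, a difference of 0.73. Dkk4 showed the reverse, at 0.34 in f/f and -0.25 in EKO with IMQ and at 0.12 and -0.46 between genotypes, a difference of -0.59. Wnt8b differed with IMQ by -0.12 in f/f and 0.16 in EKO (0.28 apart). Between genotypes Wnt2 stood at -0.27 untreated and 0.16 with IMQ (0.43 apart), and Dkk2 at -0.14 and 0.11 (0.25 apart).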

How the results depend on the processing

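Among member counts and medians recomputed under the alternatives, 165 stayed within 1.5 times the count or 0.1 of the median, and 10 moved. With IMQ in f/f the members' median went from -0.00 to -0.19 with the floor at the 40th percentile and to -0.20 with the floor required on every array, and with the mean of all probe sets the count at least 1.5-fold higher became 2. Untreated, the median between genotypes became -0.04 with the floor at the 40th percentile. For the difference of IMQ differences, the count at least 1.5-fold higher became 0 after median centring and 2 with no floor or with the 40th percentile floor, and the lower count became 1 with no floor. Its median became 0.12 and 0.13 with the 40th percentile and every-array floors. Differences of the 5 members past 1.5-fold kept their call in 41 recomputations and lost it in 1, Fzd4 in the difference of IMQ differences (0.58 after median centring). Among pathway list values 1030 stayed and 20 moved. No scaling moved the median of all genes by over 0.1. No paired analysis was possible because each group is 1 array and the labels carry no replicate numbers. The number of arrays limits all values, and 19 of 38 members lie in the low range where differences are compressed.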

Other observations

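Other marker lists are given as summed linear levels for f/f, untreated and then with IMQ, followed by EKO likewise. Dermal papilla markers (5 of 6 measured, Prom1 below the floor) summed to 1473, 1751, 1469 and 1411, and cartilage markers (8 measured, 3 below the floor) to 2247, 1625, 2092 and 1588. Macrophage markers summed to 5455, 4040, 4634 and 4459. With IMQ 4 of 6 of them were lower in each genotype, while Adgre1 (0.11 in f/f, 0.51 in EKO) and Cd68 (0.19 and 0.12) were higher. Schwann cell markers (3 of 6 measured, Sox10 below the floor) summed to 3065, 2030, 2866 and 2275, with 2 of 3 lower with IMQ in f/f and 3 of 3 in EKO. Melanocyte markers summed to 787, 606, 1012 and 1051. The melanocyte sum was higher on both EKO arrays than on both f/f arrays, as Wnt3 was. Tyr was below the floor on all arrays, and Tyrp1, Dct, Pmel and Mlana were below it on both f/f arrays. With IMQ in f/f, however, 5 of 6 melanocyte markers were lower, where Wnt3 was higher (0.45). Without IMQ 5 of 6 were higher in EKO, led by Tyrp1 (1.25) and Dct (0.82), while Mitf was lower (-0.42). The part of the melanocyte list in the Wnt3 values was not tested.

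The R-spondin gene Rspo3, which encodes a secreted enhancer of Wnt signalling, lay below the floor on all arrays. Its level was 6.91 on the untreated and 6.14 on the IMQ array of f/f, and 6.89 and 6.26 on those of EKO. The untreated arrays were close and both IMQ arrays lower, with differences of -0.77 in f/f and -0.63 in EKO. Dkkl1, a Dkk-related gene outside the naming rule, was at 10.32, 10.03, 10.67 and 10.58 in the same order, higher on both EKO arrays than on both f/f arrays.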
